A study of Mus musculus with 5 samples.

Results

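Regions that carried many reads in the input library, chromatin sequenced without immunoprecipitation, were examined among the Smarca4 peaks of mouse embryonic stem cells (mESCs). Peaks of the 4 lists on autosomes 1 to 19 were merged wherever they overlapped by 1 bp or more, which gave 71452 regions, and a region was kept where the input held 20 or more reads in any contributing peak. This left 261 high-input regions, and 71191 regions held fewer than 20 input reads. The regions were thus chosen by their input reads, and their input values are described and not tested.

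Xmas mESCs, female (XX) or male (XY) lines of strain C57/Bl6 with fluorescent reporters at the X-linked Hprt gene, were taken out of 2i medium, and their chromatin was fixed on day 4 of differentiation. They carried either the hairpin Smarcc1.6 against Smarcc1, a core subunit of the BAF nucleosome remodelling complex, or the non-silencing hairpin Nons. Chromatin was precipitated for Smarca4, an ATPase of the same complex, in 4 libraries, 1 per group, and a single input library served all 4. The labels give neither its sex nor its hairpin, and a file name in the study's reporting form marks it as Nons. Values follow the order female Nons, female knockdown, male Nons, male knockdown throughout, where knockdown stands for the Smarcc1 hairpin. Groups had no replicates, so no difference between libraries has a replicate check, and every interval is a 95% interval of counting error alone. The knockdown itself and the cell type could not be checked in peak lists.

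Input chromatin reports how many copies of a sequence the cells hold and how well reads from them can be placed on the assembly, whatever a protein binds. Ribosomal DNA and the satellite repeats around centromeres occur in long tandem arrays of which an assembly holds only a few copies, and reads from the remaining copies then fall on those few. Short tandem repeats such as runs of CA, which read as TG on the other strand, are scattered over introns and intergenic DNA and differ in length between chromosomes of the same species.

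The 261 regions were sorted by sequence and position, after their values had been seen, into 4 kinds. Runs of perfect CA or TG dinucleotides, each 8 bases or longer, made up at least 10% of the bases in 142 regions, called CA/TG regions here. A further 19 regions aligned to one another as a satellite family, 24 lay in a single block of chromosome 1 around Mroh2a and Hjurp, and 76 remained. Stretches of the GRCm38 reference (mm10), plus strand unless stated, show what the reads of the kinds other than CA/TG regions fell on.

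Neighbouring units of the satellite at chr9:3028501-3028734 and chr9:3028735-3028968 are shown because they carry the 234-base period, and a unit from Gm10800 at chr2:98666775-98667008, minus strand, because that region had the strongest signal of the family. Capitals in the first unit mark the 215 bases that stand at the same place in the next, capitals in the second mark the same bases, and capitals in the Gm10800 unit mark the 220 bases shared with the first. The period is the unit length for which the mouse major satellite, the repeat of pericentromeric chromatin, is known, but no repeat annotation was used here.
satellite unit 1: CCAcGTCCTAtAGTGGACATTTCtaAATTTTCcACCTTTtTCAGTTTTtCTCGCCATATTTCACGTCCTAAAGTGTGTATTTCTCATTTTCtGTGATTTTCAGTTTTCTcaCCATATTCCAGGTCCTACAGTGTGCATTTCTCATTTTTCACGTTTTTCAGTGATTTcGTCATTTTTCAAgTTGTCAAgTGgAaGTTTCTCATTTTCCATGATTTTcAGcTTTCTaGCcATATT
satellite unit 2: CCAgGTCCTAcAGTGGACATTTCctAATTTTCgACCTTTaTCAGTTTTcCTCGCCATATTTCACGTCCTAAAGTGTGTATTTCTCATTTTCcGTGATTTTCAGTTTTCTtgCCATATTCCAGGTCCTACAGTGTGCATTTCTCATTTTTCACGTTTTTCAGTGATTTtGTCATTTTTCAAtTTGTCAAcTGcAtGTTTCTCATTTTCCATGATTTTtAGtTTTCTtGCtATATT
Gm10800 unit: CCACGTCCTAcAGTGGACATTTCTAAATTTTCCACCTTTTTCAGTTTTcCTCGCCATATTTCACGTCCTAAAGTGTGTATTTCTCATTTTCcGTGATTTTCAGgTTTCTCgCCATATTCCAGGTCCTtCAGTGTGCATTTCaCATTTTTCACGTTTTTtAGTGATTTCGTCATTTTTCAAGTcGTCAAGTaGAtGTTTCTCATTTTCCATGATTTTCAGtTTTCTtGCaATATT

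The remaining stretches come from single regions. The first pair shows that a region on chromosome 6 (chr6:3201251-3201400) carries 18S ribosomal RNA sequence of the chromosome 17 copy (chr17:39847162-39847311), and capitals mark the 148 of 150 bases that are the same in both. In the chromosome 7 stretch (chr7:12010415-12010564) capitals mark copies of the 11-base motif ATTTAGCCCCA, the most frequent word of that length in its region, and in the chromosome 3 stretch (chr3:5860351-5860500) the 145 bases shared with a region in Camk1d. The Mroh2a stretch (chr1:88254858-88254977, coding exon, all in capitals) is shown as the contrast, since it holds no repeat.
chromosome 17 rRNA: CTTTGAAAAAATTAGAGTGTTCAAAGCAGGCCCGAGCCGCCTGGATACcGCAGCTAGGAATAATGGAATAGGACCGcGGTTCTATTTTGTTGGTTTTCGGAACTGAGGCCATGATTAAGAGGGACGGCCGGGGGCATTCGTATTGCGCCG
chromosome 6: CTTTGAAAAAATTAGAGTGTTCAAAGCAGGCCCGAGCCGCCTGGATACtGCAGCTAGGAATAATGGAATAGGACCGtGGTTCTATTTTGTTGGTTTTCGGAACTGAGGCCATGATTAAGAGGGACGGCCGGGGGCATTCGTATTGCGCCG
chromosome 7 array: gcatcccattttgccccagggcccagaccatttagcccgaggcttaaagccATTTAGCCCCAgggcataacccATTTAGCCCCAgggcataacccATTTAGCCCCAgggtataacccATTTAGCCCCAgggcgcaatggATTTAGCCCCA
chromosome 3: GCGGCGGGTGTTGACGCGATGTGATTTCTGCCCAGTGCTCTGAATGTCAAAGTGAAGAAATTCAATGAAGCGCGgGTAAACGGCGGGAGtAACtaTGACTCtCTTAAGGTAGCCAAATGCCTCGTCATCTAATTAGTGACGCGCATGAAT
Mroh2a exon: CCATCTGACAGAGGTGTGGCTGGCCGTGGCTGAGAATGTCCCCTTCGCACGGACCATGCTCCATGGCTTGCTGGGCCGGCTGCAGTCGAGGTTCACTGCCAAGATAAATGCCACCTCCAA

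Sequence set these regions apart from the rest of the peaks. The median width was 750 bp, against 450 bp over all 71452 regions, and the median GC content 45.6% against 54.2%. Soft-masked bases, which the reference writes in lower case as repeats, had a median of 65% against 7.67%. CA/TG regions were 54.4% of the 261 (interval 48.2 to 60.6%) and 2.70% of all regions. A word of 8 CA dinucleotides in a row, searched on both strands, occurred in 115 of the 261 (44.1%) and in 3278 of all regions (4.59%). A region at Calhm3 on chromosome 19, which encodes a calcium homeostasis modulator family member, held it at 28 positions. Positions that overlap within the same run were each counted.

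Sequence that occurs more than once in the reference was present in nearly all satellite regions and in some of the other regions. A word of 75 bases, the read length, that occurs more than once in the reference was found in 53 of the 261 regions (20.3%), against 4.44% of all regions, in 18 of the 19 satellite regions and in 28 of the 76 other regions. Only 6 of the 142 CA/TG regions held such a word, so by this measure every exact read of full length in the other CA/TG regions had a single place in the assembly. For these counts 1 repeated word in a region was enough. Repeated words were the majority of words in 7 of the 19 satellite regions. In Gm10800 they made up 33.8% of words, and in the region at the start of Gm10801 23.6%. Most words in both of these regions thus also had a single place. The mitochondrial genome matched 0 of the 261, and the regions below the threshold were not aligned to it.

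By position, the high-input regions were near the edges of the assembly more often than other regions. An assembly gap of 1000 bases or more lay within 100000 bp of 26 of the 261 (9.96%), against 1.15% of all regions. These were 11 of the 19 satellite regions, 9 of the 76 others, 6 of the 142 CA/TG regions (4.23%) and 0 of the Mroh2a-Hjurp block. Start sites lay within 1000 bp of 45 regions (17.2%, interval 12.9 to 22.4%), against 19.8%. Introns held 95 of the 261, intergenic DNA 94, coding exons 53 and other exons 19. A distance of less than 100000 bp joined 63 regions into 13 loci, and the other 198 stood alone. Chromosome 1 held 31 regions (11.9%, against 5.26% of all regions), 24 of them in the Mroh2a-Hjurp block. Chromosome 9 held 21 (8.05%, against 5.36%), 10 of them satellite.

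Input reads in the 261 regions had a median of 26 and ran from 20 to 4263. With fewer than 5 input reads CA/TG regions were 1.89% of regions, and they made up 2.64% of regions with 5 to 9 reads, 10.7% with 10 to 19 and 63.6% with 20 to 49. At 50 or more reads the share was 4.88%, or 2 of 41. Regions just inside the threshold, with 20 reads, numbered 28, of which 18 were CA/TG regions. Just outside, 51 regions held 19 reads and 25 of them were CA/TG regions. Those at 20 reads included regions in Dna2, a nuclease and helicase of DNA replication, Scaf1, Llgl1 and Tmem267, and those at 19 reads Mroh2a, Tbkbp1, Peak1 and Rint1. Scaled ChIP values over input plus 1 had medians of 1.43, 0.795, 3.17 and 1.00 at 20 reads and 1.29, 0.835, 3.67 and 1.05 at 19 reads in the 4 libraries.

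**Figure D1:**
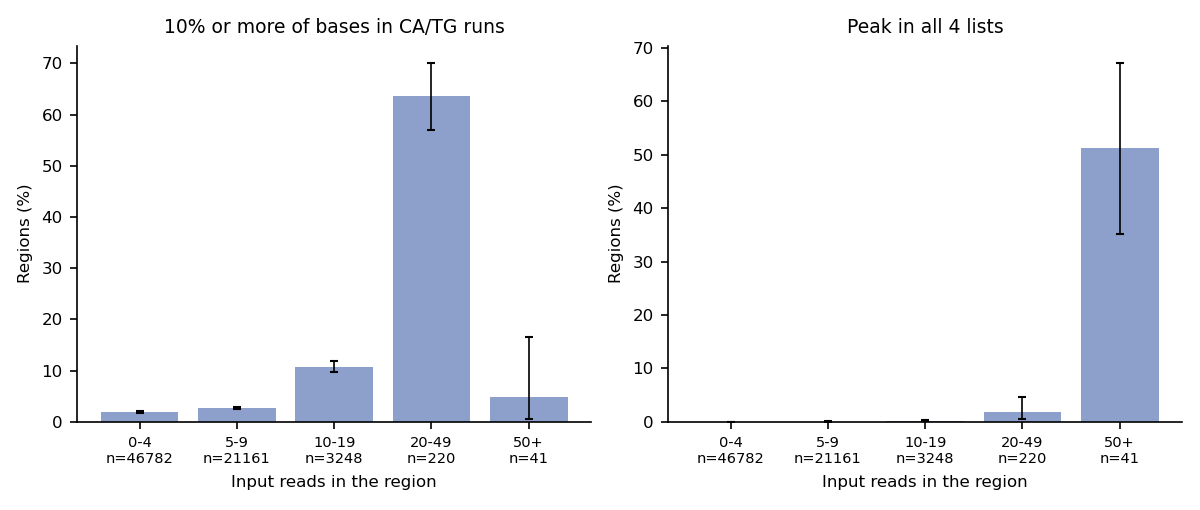
Share of merged autosomal regions with at least 10% of bases in CA/TG runs (left) and with a peak in all 4 lists (right), in %, by input reads in the region; bars are shares, lines 95% exact binomial intervals, n the regions. The CA/TG share reaches 63.6% at 20 to 49 reads and is 4.88% at 50 or more, where 51.2% of regions are in all 4 lists.

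Peaks over the high-input regions were unevenly spread over the lists. Male Nons called 234 of the 261 (89.7%), where it called 53.1% of all regions. Female Nons called 63 (24.1%, against 29.3%) and male knockdown 60 (23.0%, against 23.3%), shares close to those over all regions. Female knockdown called 37 (14.2%, against 3.81%). Calls are part of how the regions were found, since each had to be a peak somewhere, so these shares are descriptions.

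The distribution over lists was split. A single list held 199 regions (76.2%, against 91.2%), and 177 of these were in the male Nons list alone, which held 45.7% of all regions alone. At the other end, 25 regions were in all 4 lists, of 39 such regions in the whole series (0.0546% of all regions). At least 3 lists held 46 (17.6%, against 0.593%). The 25 regions were 11 of the satellite family, 4 of the Mroh2a-Hjurp block and 10 others, and 0 were CA/TG regions.

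**Figure D2:**
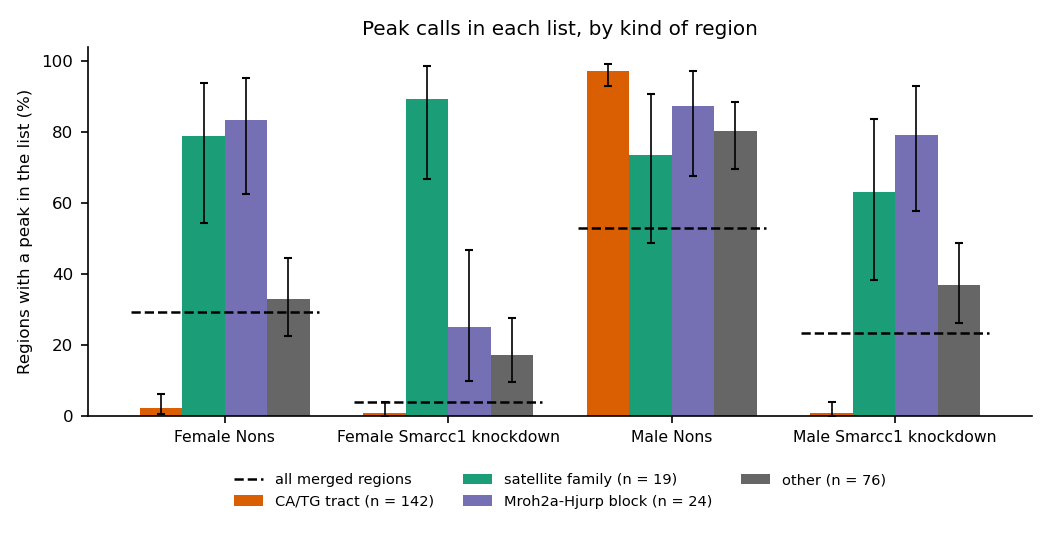
Share of each kind of high-input region with a peak in each list, in %; bars are shares with 95% exact binomial intervals, dashed lines the share over all 71452 merged regions. CA/TG regions stand at 97.2% in male Nons and at 2.11% or less in the other lists.

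ChIP over input was taken as the deposited ChIP value, scaled by the authors to the depth of the input, divided by the input reads plus 1. Its median over the 261 regions was 1.59, 1.34, 3.06 and 1.59, against 6.45, 2.09, 6.62 and 5.27 over all regions. In regions that a library had not called, the medians were 1.12, 1.03, 1.88 and 1.17, against 4.30, 1.67, 3.67 and 3.51 over all regions it had not called. High-input regions thus gave lower ratios in every library. The input is the divisor of the ratio, so this follows in part from the choice of regions. Summed over regions, the ratio was 2.71, 3.19, 2.61 and 2.59. Depth relative to the input was 11.6%, 5.99%, 21.8% and 14.2%, and the median peak of each list rested on 7, 5, 9 and 8 reads.

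**Figure D3:**
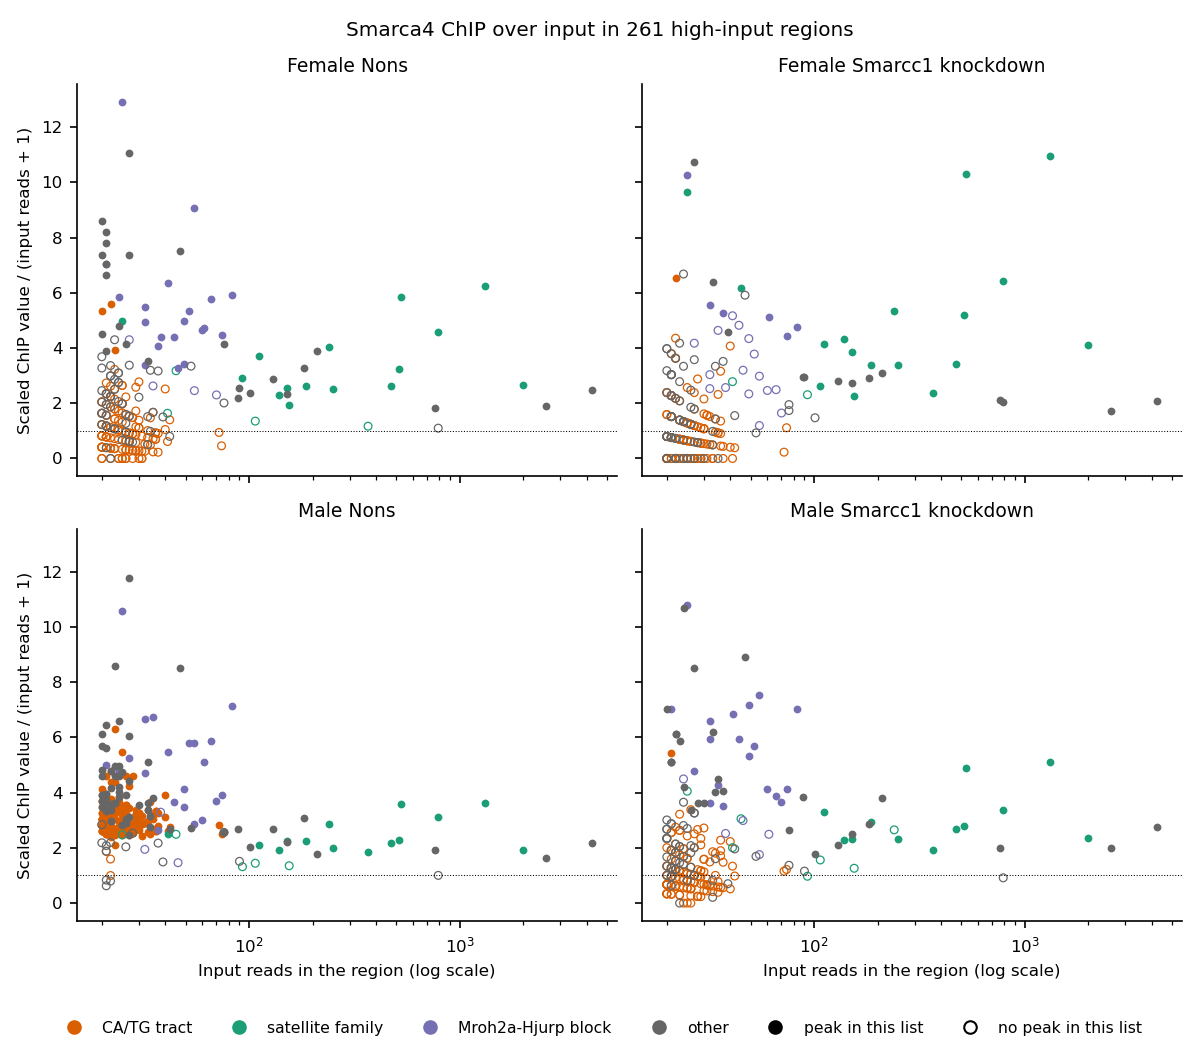
Scaled ChIP value divided by input reads plus 1 against input reads (log axis) for the 261 high-input regions, 1 panel per ChIP library; colour gives the kind of region, filled points are peaks of that list and the dotted line is a ratio of 1. Orange CA/TG points are filled in male Nons alone, with the exception of 5 calls in the other lists, and satellite points (green) are highest in female knockdown.

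CA/TG regions, the most frequent kind, gave about as much signal as the input in 3 of the 4 libraries. Their median ChIP over input was 2.99 in male Nons, against 0.922, 0.696 and 0.992 in female Nons, female knockdown and male knockdown. Ratios of summed values were 1.11 (interval 1.01 to 1.22), 0.995 (0.865 to 1.14), 3.20 (3.04 to 3.36) and 1.21 (1.12 to 1.32). Male Nons was the highest library in 133 of the 142. The male Nons list held 138 of them, 137 in no other list, while female Nons called 3, female knockdown 1 and male knockdown 1. The male Nons library largely chose these regions, so its height in them is a description.

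Reads in single regions show the pattern. The region in an intron of B4galt1, a galactosyltransferase of the Golgi, held 42 input reads and 7, 1, 26 and 6 ChIP reads. The region in Gm29506 held 41 and 3, 0, 24 and 8. In both, male Nons had the most reads and was also the deepest library. Scaled to depth and over input, male Nons stood at 2.77 and 2.62 in these regions, and no other library exceeded 1.40. Further regions with 40 input reads lay in Adra1a, an adrenergic receptor gene, and at the start of Tmem267, both CA/TG regions.

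The tracts themselves were modest in length, as many short runs with interruptions rather than a long perfect repeat. Perfect runs made up a median of 24.8% of a CA/TG region, from 10% to 57.3%, in a median of 15 runs per region. The longest single run was 59 bases, with a median longest run of 21.5 bases, and runs joined across breaks reached 151 bases, with a median of 52. On the plus strand 80 of the 142 read as CA and 62 as TG. Introns held 67 and intergenic DNA 65, and 10 lay within 1000 bp of a start site (7.04%). Between 3 and 59 runs were counted in a region.

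CA/TG regions with fewer than 20 input reads numbered 1788. Male Nons called 58.9% of them (interval 56.6 to 61.2%), against 53.0% of all regions below the threshold. Female Nons called 22.7% against 29.3%, female knockdown 6.38% against 3.78% and male knockdown 15.3% against 23.3%, so the shares lay above the background in 2 lists and below it in 2. Their medians over input were 3.27, 0.835, 4.59 and 2.81. In regions below the threshold that a library had not called, ratios in CA/TG regions were lower than in others in every library: 2.15 against 4.30, 0 against 1.67, 3.06 against 3.75 and 2.34 against 3.51. CA/TG regions had more input in these sets, with medians of 5 reads against 3 in the female libraries and male knockdown and 4 against 3 in male Nons. The part of the higher input in these ratios was not tested.

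Exceptions among CA/TG regions were few. Female Nons called regions in Naaa, an amidase of lysosomes, and Asic2, an acid-sensing ion channel, and 1 on chromosome 9 at 96792901. Female knockdown called 1 on chromosome 6 at 141227851, and male knockdown 1 in Csmd2. These 5 were named after their values were seen.

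The satellite family behaved otherwise. The median exceeded the input in all 4 libraries, and female knockdown was highest in 18 of the 19 regions. The median ChIP over input was 2.65, 4.09, 2.26 and 2.65, and ratios of summed values 3.71 (3.56 to 3.86), 5.88 (5.62 to 6.14), 2.54 (2.44 to 2.64) and 3.15 (3.02 to 3.28). Summed values in knockdown over Nons were 1.58 in female cells (1.505 to 1.67) and 1.24 in male cells (1.19 to 1.30), where over all regions they were 0.531 and 0.904. With libraries scaled to equal medians they were 2.45 and 1.89, against 0.820 and 1.38 over all regions. These intervals cover counting error, and the order of the 4 ratios was the reverse of the order of depth. So scaled, the ratios were 3.44, 8.42, 1.89 and 3.57, with the shallowest library still highest and the deepest lowest, and male knockdown above female Nons. With 1 library per group, depth and group cannot be told apart.

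**Figure D4:**
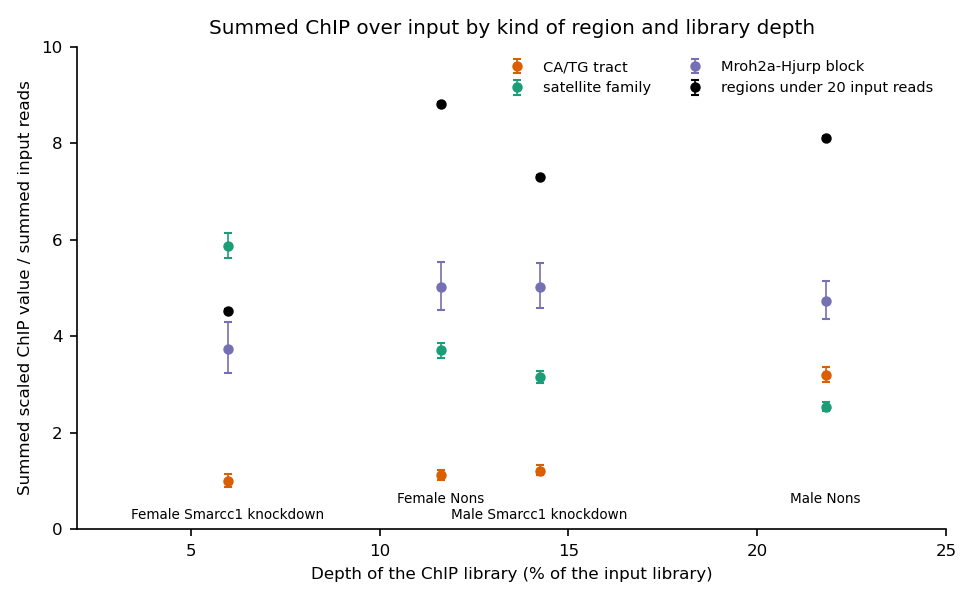
Summed scaled ChIP value divided by summed input reads against the depth of each ChIP library (% of the input), for 3 kinds of high-input region and for regions with fewer than 20 input reads; points are libraries with 95% counting intervals. The satellite ratio falls from 5.88 at a depth of 5.99% to 2.54 at 21.8%, while the CA/TG ratio is 3.20 in male Nons and between 0.995 and 1.21 elsewhere.

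Removal of duplicates keeps at most 1 read for each start position and strand, which limits regions of very high input. Input reads filled up to 39.9% of start positions in a satellite region, with a median of 9.2%, against a median of 1.92% over the 261. A correction that assumes even use of start positions, chosen after seeing the data, gave 3.54, 5.56, 2.44 and 2.998, in the same order. Whether uneven use of positions contributes was not tested.

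Gm10800 on chromosome 2 (98665951 to 98667600) had the strongest signal of the family. Its input held 1316 reads and its scaled ChIP values were 8249, 14433, 4792 and 6738, or 6.26, 10.96, 3.64 and 5.12 over input. Gm33838 on chromosome 9 followed, with 525 input reads and 5.84, 10.3, 3.57 and 4.89 over input. Gm10801, in the same locus of 5550 bp as Gm10800, held 787 reads at its start and gave 4.60, 6.42, 3.11 and 3.39. Gm21738 on chromosome 14, with the highest input of the family (1986 reads), gave lower ratios of 2.65, 4.09, 1.92 and 2.35. In all of these female knockdown was highest and male Nons lowest. These annotated genes are predicted models over the repeat.

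Near the start of the assembled chromosome 9, between 2999701 and 3038550, 10 satellite regions lay among Gm10722, Gm10720, Gm10717 and neighbouring models. Their input ran from 25 to 517 reads. The region of the printed units held 45 input reads, 92.3% of its bases matched the base 234 positions on, and its ratios were 3.18, 6.17, 2.49 and 3.05. Female knockdown was not the highest in 1 region of the family, its neighbour at 3029551, with 2.93, 2.31, 1.32 and 0.972. Others lay on chromosome 12 at 3109651, in Chl1, a cell adhesion gene (155 input reads), and in an intron of Cdk5rap2, a centrosomal protein gene (41 input reads, male Nons list only).

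Few regions below the threshold carried the satellite. The family was built among the high-input regions alone, so its 19 regions match it by construction. Outside them, 1 region of the series had 80% identity to a member over 100 bases or more. It lay on chromosome 17 at 89133601 and held 4 input reads. Of a list of 14 satellite gene models 10 overlapped a high-input region, and the 13 regions of the whole series that overlapped them were all high-input regions. High-input regions were 261 of all 71452. The same list served to pick out the family and was chosen with earlier results known, so this overlap is a description. Input and scaled ChIP value rose together over the 19 regions, with Spearman's rho between 0.965 and 0.982 in the 4 libraries, and between 0.848 and 0.926 per kb. All points of these correlations share the input library, and the regions are not independent.

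The Mroh2a-Hjurp block differed again, because it holds genes and hardly any repeats. The 24 regions spanned 83700 bp on chromosome 1 (88217851 to 88301550), from the end of the Ugt1a cluster, whose enzymes add glucuronic acid to bilirubin and drugs, through Mroh2a and Hjurp, the chaperone that deposits the centromeric histone Cenpa, into Trpm8, a cold-sensing channel. Soft-masked bases had a median of 9.16%, close to the 7.67% of all regions, and 1 of the 24 held a word found elsewhere. Coding exons lay in 16 of the 24 (66.7%, against 23.2% of all regions).

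Input is known only inside called peaks, and the threshold chose 24 of those in the span. It had a median of 35.9 reads per kb in the 24 regions, from 18.5 to 73.3. The 3 other called regions of the span, which missed the threshold, held 16 to 28.3 reads per kb. The 3 called regions within 100000 bp, all beyond the Trpm8 end, held 2.22 to 13.3, and the median of all regions was 8.89. Input per kb was thus higher in every called region of the span than in the 3 beside it, though the threshold fixed part of that order.

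**Figure D5:**
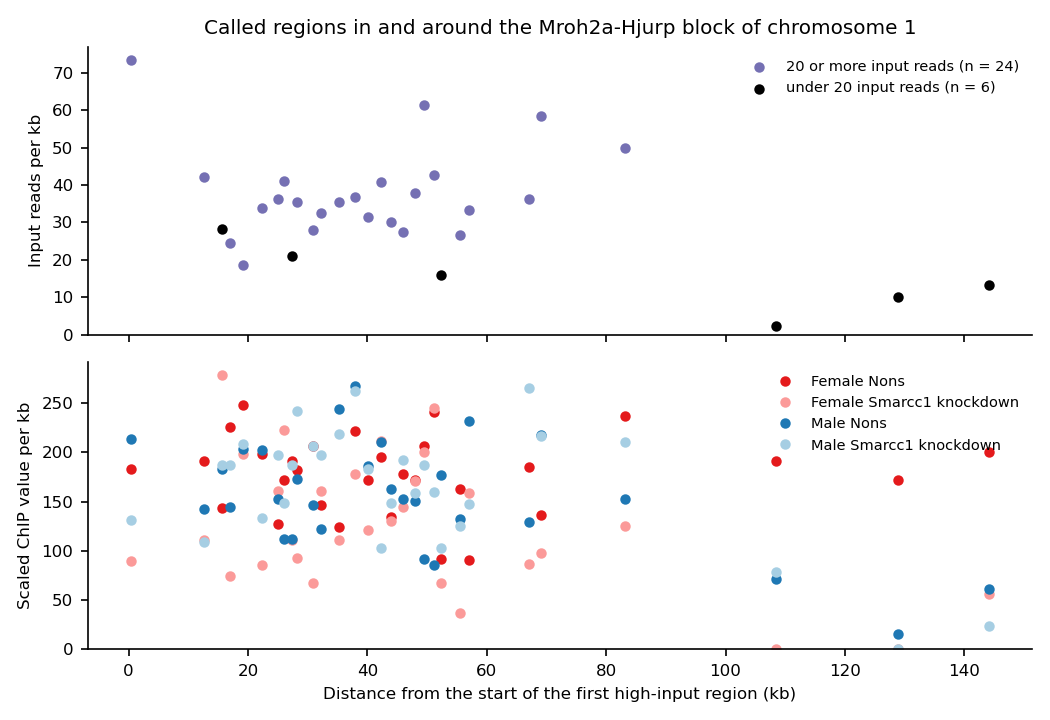
Input reads per kb (top) and scaled ChIP value per kb in each library (bottom) for the called regions in and beside the Mroh2a-Hjurp block, by distance in kb from the start of the first high-input region; each point is a region. The 24 high-input regions hold 18.5 to 73.3 input reads per kb, and the 3 regions beyond the block 2.22 to 13.3.

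ChIP values in the block were close to each other in 3 libraries. The median over input was 4.69, 3.49, 4.75 and 4.63, and ratios of sums were 5.02 (4.55 to 5.54), 3.74 (3.24 to 4.29), 4.74 (4.36 to 5.15) and 5.03 (4.58 to 5.51). The lists called 20, 6, 21 and 19 of the 24, where they called 29.3%, 3.81%, 53.1% and 23.3% of all regions. Summed values in knockdown over Nons were 0.744 in female cells (0.640 to 0.863), or 1.15 with libraries scaled to equal medians, and 1.06 in male cells (0.968 to 1.16), or 1.62 so scaled. The direction in female cells thus rested on the scaling.
The region at 88236301, 308 bp from a start site of Mroh2a, had 25 input reads and 12.9, 10.3, 10.6 and 10.8 over input, among the highest ratios of the 261. The region holding the printed exon (88254601) had 83 input reads and 5.94, 4.77, 7.15 and 7.03, and that in Hjurp at 88264801 had 74 and 4.47, 4.45, 3.91 and 4.12. Of 13 genes listed as varying in copy number, 2 (Hjurp and Sfi1) overlapped high-input regions, which were 8 of the 38 called regions over listed genes.

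Ribosomal DNA gave the highest input of all. A region of 6300 bp on chromosome 17 (39842851 to 39849150), over an annotated 18S ribosomal RNA gene and the models Gm26917, Gm42418 and AY036118, held 4263 input reads. Its scaled ChIP values were 10649, 8904, 9226 and 11733, or 2.50, 2.09, 2.16 and 2.75 over input. All 4 lists called it, and the libraries differed from each other by less than in the satellite. The region on chromosome 6 at 3201151 aligned to the 18S gene with 97.7% identity over 520 bases, held 21 input reads and gave 8.21, 3.04, 5.63 and 5.11. A further 2 regions aligned to that gene and held 6 and 2 input reads. No other ribosomal RNA gene was searched for in the regions.

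Some regions of very high input had little sequence with exact copies elsewhere. Sfi1 on chromosome 11, which encodes a centrin-binding protein, carried a region of 9600 bp at its start (3188551 to 3198150) with 2575 input reads and 1.89, 1.71, 1.65 and 1.98 over input. Words of 75 bases found elsewhere made up 0.840% of it. Its neighbour at 3184351 held 790 reads and gave 1.10, 2.05, 1.00 and 0.915, called in female knockdown alone. An intergenic region on chromosome 15 (75085201) held 762 reads and gave 1.84, 2.10, 1.92 and 1.99. Ratios in these 3 regions were all under those of Gm10800.
Regions in introns of Aida (209 input reads) and Cdk8, a kinase of the Mediator complex (151 reads), and an intergenic region on chromosome 11 at 109011451 (183 reads) held no such word, and all 4 lists called them. The last gave 3.27, 2.91, 3.07 and 2.86, nearly level across libraries. These 3 were named after their values were seen.

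Around Tmem267 and Gm48265 on chromosome 13, 5 regions lay within 19350 bp, and the one of highest input (130 reads) had a 31-base period and gave 2.89, 2.81, 2.70 and 2.09. The region of chromosome 3 printed above held 89 input reads, gave 2.20, 2.97, 2.70 and 3.83, and shared 282 bases at 97.2% identity with a region in Camk1d that held 26. What these shared stretches are was not established, since no repeat annotation was used. Of ribosomal RNA genes only the 18S gene was aligned, so other ribosomal sequence in them would have been missed.

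High ratios in all 4 libraries were rare among the 261. The chromosome 7 array at 12010201 held 27 input reads and gave 11.1, 10.7, 11.8 and 8.53, which set it beside the Mroh2a region. Its 22-base period matched at 68.8% of bases, and it held 17 copies of ATTTAGCCCCA, counted on both strands, a motif present in this region alone of the 261 (0.383%) and in 26 of all regions (0.0364%). A region in Gm49692 on chromosome 12 with 47 input reads gave 7.53, 5.92, 8.50 and 8.93. A region over Gm23935 in Zc3h7a, with 33 reads, gave 3.54, 6.39, 5.12 and 6.20 and was in all 4 lists.

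A few start sites of developmental regulators were among the 261. Tbx3, a T-box factor, held 23 input reads at its start and gave 4.30, 1.39, 8.60 and 5.85. Pax7, a paired-box factor of neural crest and muscle, held 24 and gave 4.82, 6.68, 4.95 and 10.7. Male knockdown was highest at Pax7 and male Nons at Tbx3. Tbx3 was in 2 lists and Pax7 in 3, and both were picked by their ratio where called. The height of the calling libraries in these 2 regions thus follows in part from the choice. Female Nons was highest in regions that its list alone held, among them Dna2 (8.60, 3.98, 2.18 and 2.34), Capn9, a calpain (7.82, 3.04, 0.625 and 1.28), and Pofut2, a protein fucosyltransferase (7.04, 3.80, 1.88 and 1.92). These regions rest on 20 or 21 input reads and on 18 to 21 reads in female Nons. They were found through that library alone and picked by their ratio where called. Its height in them thus follows in part from the choice. Of the 60 regions over 21 imprinted genes listed and the 42 over small nuclear and nucleolar RNA genes, 0 were among the 261. High-input regions were 261 of all 71452, so sets of this size would hold few or none at the background share. The absence thus marks neither list.

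Differences between groups were counted where either library held 5 or more reads. A value at least 2-fold lower in knockdown than in Nons was found in 56 of 147 regions in female cells (38.1%, against 73.3% of all regions) and in 130 of 259 in male cells (50.2%, against 37.7%). Values at least 2-fold higher were found in 8 of 147 (5.44%, against 8.75%) and in 8 of 259 (3.09%, against 23.9%). Female Nons was at least 2-fold lower than male Nons in 130 of 261 (49.8%, against 33.0%) and higher in 12 (4.60%, against 29.5%). CA/TG regions made up 105 of the 130 lower in male knockdown and 106 of the 130 lower in female Nons. The 177 regions that male Nons alone called were found through that library, so lower values elsewhere follow in part from the choice.

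A test over all 71452 regions called no difference. The edgeR quasi-likelihood fit of sex plus hairpin, with Benjamini-Hochberg adjustment, called 0 regions for either term (0.0% of all regions), and DESeq2 likewise called 0. At an unadjusted p under 0.05, edgeR marked 339 regions for sex (0.474%) and 310 for the hairpin (0.434%). Of these, 28 and 5 were high-input regions, or 10.7% and 1.92% of the 261. DESeq2 marked 333 (0.466%) and 247 (0.346%), of which 13 and 6 were high-input regions, or 4.98% and 2.30% of the 261. The median fitted log2 difference of female minus male was -1.26 in CA/TG regions, 0.63 in the satellite family and -0.26 in the Mroh2a-Hjurp block, against -0.42 over all regions. Knockdown minus Nons gave -1.16, 0.40 and -0.15, against -0.70, and with TMM factors -0.89, 0.65 and 0.11, against -0.45, so the sign in the block changed with the scaling. The fit leaves 1 residual degree of freedom and takes the hairpin to act alike in both sexes. Over all regions, fewer fell under an unadjusted p of 0.05 than chance alone would give. The fit was thus too cautious for the lack of calls to show that the libraries were alike. The high-input regions were also peaks in the libraries it compares.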

How the data were processed

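Smarca4 ChIP-seq peaks were analysed from 4 lists. The authors called each list in the only library of its group, against 1 input library. Groups came from sample titles. The antibody label names the hairpin target, while the design text gives Smarca4 as the precipitated protein. Per the study's methods, single-end reads of 75 bases were trimmed, aligned to mm10 with bowtie2, and freed of duplicates, and peaks were called in Seqmonk. A reporting form names tophat in place of bowtie2, and bcl2fastq, MACS2 and Bowtie2 are listed in the submitters' processing notes, so the aligner is uncertain. The form also counts uniquely mapped reads per library, in the same ratios as the depths found here. Whether the peak values hold only such reads was not given in the sources used here.

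The deposited ChIP values are a signal per peak, which the authors gave for every library in each list. Within each library 100% of values tested were whole multiples of the same step (tolerance 0.01 reads), which was taken as 1 read scaled to input depth. Steps were 8.60, 16.7, 4.59 and 7.03, and the lists held 20953, 2726, 38033 and 16707 autosomal peaks. The deposited input values are counts of reads per peak. Library totals were not used.

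Where several peaks contributed to a region, values are those of the peak with the highest input. Shares have exact Clopper-Pearson intervals and ratios of sums intervals from the exact binomial of Poisson counts, at 95%. Sequence came from GRCm38.p6 (RefSeq) and genes from GENCODE vM21. Words of 75 bases were counted over the reference on both strands. Regions were aligned to each other with blastn 2.17.0. Recovered reads were fitted with edgeR 4.0.16 in R 4.3.3 (library sizes in the ratio of depths) and with DESeq2 1.42.0.

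Named regions were the 10 of highest input, the 10 in most lists, the 10 of highest ratio where called, 1 per sequence family, up to 10 at coding promoters, those over listed genes, and up to 5 at and just under the threshold. Others are said to be chosen later. From these sets examples were printed, and 2 regions and the sequences of CA/TG regions are not reported here. The gene lists held satellite, ribosomal, nuclear mitochondrial (0 regions), copy-variable, imprinted and small RNA genes. Regions and lists were chosen with earlier results of these data known. The alternatives tried are given after the report.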

Additional observations from a re-analysis of the deposited data

Results flagged for a closer look

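A single region outside the autosomes held 20 or more input reads, of 477 merged regions on the X chromosome. It lay at 143482651 to 143483400, held 58 input reads and was in all 4 lists. Scaled ChIP values over input plus 1 were 6.56 and 9.34 in the female Nons and knockdown libraries, and 3.73 and 4.64 in the male ones. It belongs to no comparison above, since X dosage differs between the sexes and the sex of the input was not given.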

How the results depend on the processing

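Of 76 values recomputed under alternatives, 38 stayed within their counting interval and 38 moved. The number of regions moved most: the 50% of each list with the highest ratio left 2, and thresholds of 10 and 50 input reads gave 3509 and 41. The share in 3 or 4 lists was 0% of the 2, 2.54% at 10 reads, 70.7% at 50 and 38.7% without CA/TG regions. The share in the male Nons list was 67.0% at 10 reads, 100% of the 2, and 80.7% without CA/TG regions. Median ChIP over input at thresholds of 10 and 50 reads and without CA/TG regions was 2.65, 2.64 and 2.89 in female Nons, 3.88, 2.51 and 3.37 in male Nons, and 2.31, 2.50 and 2.68 in male knockdown. In female knockdown it was 2.91 at 50 reads and 2.47 without CA/TG regions. Adding 5 to the input gave 2.66 in male Nons. Scaling libraries to equal medians of the regions below the threshold multiplied values by 0.927, 1.43, 0.745 and 1.13, and gave medians of 1.91 in female knockdown and 2.28 in male Nons. It lowered the 2-fold lower shares to 21.8% in female and 29.3% in male knockdown. With words of 31 bases 87.0% of regions held multi-copy sequence, against 24.8% of all regions, and with words of 75 bases 10.7% did at 10 reads and 61.0% at 50. Start sites within 2500 bp were found for 28.4% (32.3% of all regions), and within 1000 bp for 24.7% at 10 reads and 46.3% at 50. CA/TG regions were 39.1% where 20% of bases had to lie in runs, 13.9% at 10 reads and 4.88% at 50. The thresholds and filters change which regions are counted, and the other causes were not tested. TMM factors moved the median log2 of all regions for the hairpin from -0.70 to -0.45. Every setting of edgeR and DESeq2 called 0 regions, with a smallest adjusted p of 0.241 (DESeq2, sex). The alternatives on CA/TG regions and start positions were chosen after seeing the data.

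No paired analysis was possible because each group held 1 library and the labels carry no replicate numbers. Regions at the threshold rest on 20 reads, and female knockdown, at 5.99% of the input's depth, sees few reads in them, so a missing peak there is not an absence of signal.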
